A study of Saccharomyces cerevisiae with 5 samples.

Results

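The genes described here are the 32 budding yeast genes listed by name for sulfate assimilation and for methionine and cysteine metabolism. They comprise 10 genes of sulfate assimilation, 6 of the methionine cycle, 4 of cysteine synthesis, 6 transporters and 6 regulators. All 32 were found among the 5449 genes with a matched probe set, and each was read by 1 probe set of its own. The study measured RNA of Saccharomyces cerevisiae on Affymetrix arrays. The PHO2 deletion group had 2 arrays, and the group of the wild-type strain FY4, a prototroph related to the reference strain S288C, had 3 arrays. PHO2 encodes a homeodomain transcription factor that acts with partners such as Pho4 and Bas1. Both groups were grown in batch culture in minimal medium with glucose and taken in exponential growth. The labels do not give the strain background of the deletion separately, and they do not say whether arrays of a group came from separate cultures, so p-values measure no more than the spread among these arrays, part of which may be technical.

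Yeast takes up sulfate, activates it with ATP in consecutive steps and reduces it to sulfite and then sulfide. Sulfide is joined to O-acetylhomoserine to make homocysteine, which is methylated to methionine or passed through cystathionine to cysteine. The pathway's genes are switched on by the activator Met4, which has no strong DNA binding of its own and is brought to promoters by Cbf1, Met28, Met31 and Met32. When sulfur compounds are plentiful, the ubiquitin ligase containing Met30 modifies Met4 and turns the genes down.

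On the 5 arrays the median log2 signal over all genes was 11.18 and 11.16 for the 2 labelled PHO2 deletion and 11.13, 11.16 and 11.09 for the wild-type arrays. The probe set for PHO2 did not separate the groups. It read 10.07 and 10.84 on the arrays labelled PHO2 deletion and 10.72, 10.54 and 10.38 on the wild-type arrays. Its difference was -0.09 (adjusted p = 0.825, limma), and its mean on the arrays labelled PHO2 deletion was 16.2-fold above the background bound, the 95th percentile of annotated probe sets that match no gene. The labels do not say which bases were deleted, so a deletion of PHO2 was not checked by this probe set. In what follows, PHO2 deletion names these arrays by their label. Of 47 probe sets whose IDs mark them as reporters, the one with the largest difference, singled out after its values were seen, read 14.35 and 14.38 on the arrays labelled PHO2 deletion and 4.38, 4.58 and 4.29 on the wild-type arrays. Of 20 general stress genes 11 rose (limma, adjusted p below 0.05) on the arrays labelled PHO2 deletion, against 3.17% of all genes. This list was chosen with earlier results of these data known, so the count is a description and not a test. The summed signal of the 20 was 75945 to 78365, against 48756 to 57123 on the wild-type arrays. Of 6 genes that mark mating type a, none passed the test, and their summed signal was 80677 to 92112 against 49594 to 60671. Their log2 differences were uneven. MFA1, MFA2 and AGA2, of 111, 117 and 264 coding bases, had 1.38, 1.11 and 1.28. The longer STE2, STE6 and BAR1 had 0.20, 0.16 and 0.14. The part of these lists in the results below was not tested.

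Differences are given as PHO2 deletion minus wild-type on the log2 scale, with limma's moderated standard error (SE) and p-values adjusted over all 5449 genes by the Benjamini-Hochberg method. The threshold was an adjusted p of 0.05. Of the 32 sulfur genes, 3 rose, none fell and 29 did not pass. The 3 that rose were SAM3, MUP1 and STR2, a pair of transporters and an enzyme that turns cysteine into cystathionine. Among all genes 275 passed, which is 5.05%, with 3.17% higher and 1.87% lower. At an unadjusted p of 0.05, 12 of the 32 passed, 10 higher and 2 lower, against 29.4% of all genes. In 13 of the 32 both arrays of the deletion lay above all wild-type arrays, a pattern that 27.1% of all genes had. In 8 both lay below, a pattern of 25.9% of all genes. Of the 32, 24 differed by less than 0.2 in either direction, against 66.0% of all genes. The median difference of the 32 was 0.06, beside 0.01 over all genes. That median ran from 0.00065 without deletion replicate 1 and 0.025 without wild-type replicate 1 to 0.11 without wild-type replicate 2 and 0.12 without deletion replicate 2, and it was 0.0066 with the trend on coding length removed. The 12 genes at an unadjusted p of 0.05 became 5 without wild-type replicate 1 and 5 with a replicate block. The 1603 among all 5449 genes became 1169 and 1027. With a trend on intensity and with array weights the 12 became 15 each, and the 1603 became 1700 and 1977.

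**Figure D1:**
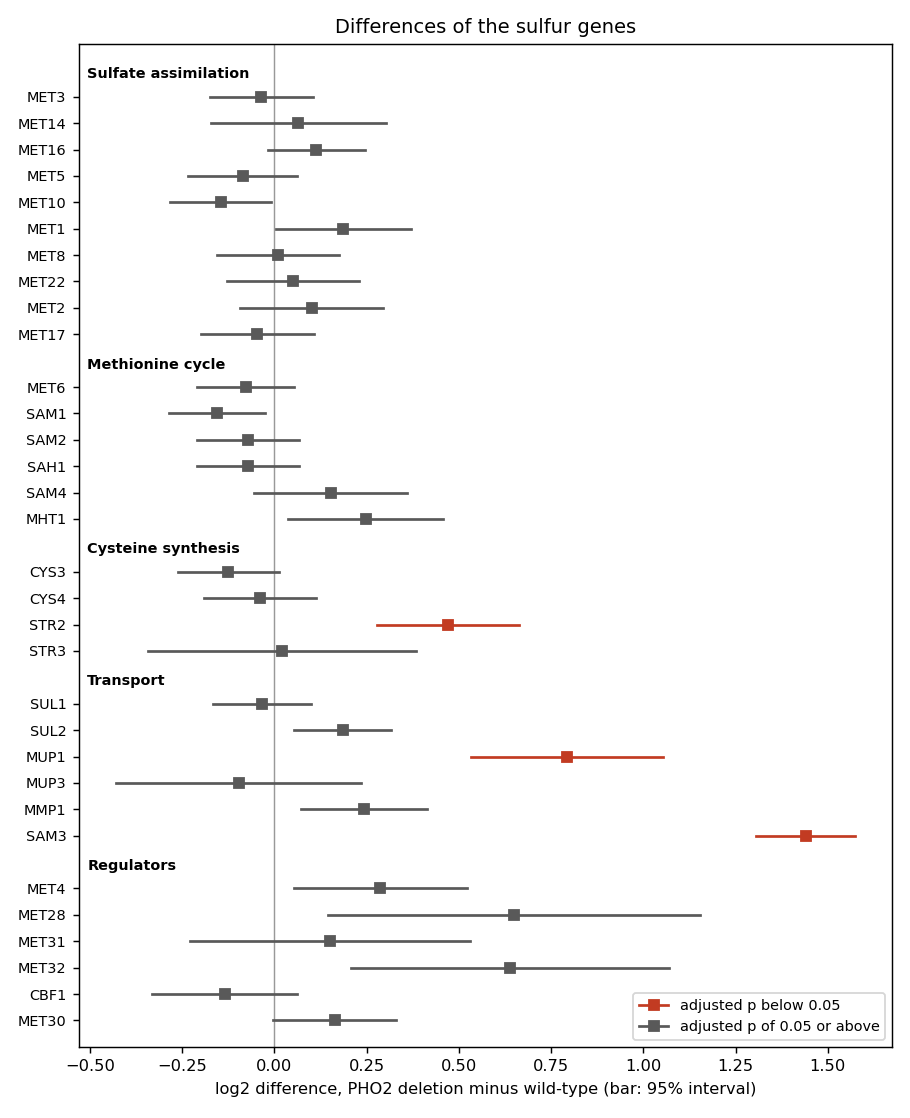
Difference in log2 signal (PHO2 deletion minus wild-type) of each of the 32 genes, ordered by role, with its 95% interval from limma. The points of SAM3 at 1.44, MUP1 at 0.79 and STR2 at 0.47 are those past the adjusted threshold, and the 10 sulfate assimilation genes lie between -0.15 and 0.19.

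Of the 6 transporters 2 rose, none fell and 4 did not pass, and the median difference was 0.21. SAM3 (YPL274W), the high-affinity permease for S-adenosylmethionine, read 12.94 and 12.93 in the PHO2 deletion and 11.49, 11.46 and 11.53 in wild-type. Its deposited signal was 7854 and 7824 in the deletion, against 2885, 2817 and 2967 in wild-type. The groups were far apart and the arrays within each were close together. The difference was 1.44 (SE 0.05, adjusted p = 0.000542, limma), a 2.71-fold higher signal with a 95% interval of 2.47 to 2.98. MUP1 (YGR055W), the high-affinity methionine permease, which also takes up cysteine, read 12.24 and 12.04 in the PHO2 deletion and 11.42, 11.41 and 11.20 in wild-type. The lowest deletion array was above the highest wild-type array. The means were 12.14 ± 0.14 (SD, n = 2) and 11.35 ± 0.12 (SD, n = 3), and the difference was 0.79 (SE 0.10, adjusted p = 0.0241, limma), or 1.73-fold with an interval of 1.45 to 2.08.

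The other 4 transporters did not pass the adjusted threshold. MMP1, the permease for S-methylmethionine, read 12.35 and 12.46 in the PHO2 deletion and 12.22, 12.16 and 12.09 in wild-type. Its groups did not overlap, and the difference was 0.24 (SE 0.07, unadjusted p = 0.014, adjusted p = 0.100, limma). SUL2, a sulfate permease, read 13.46 and 13.42 in the PHO2 deletion and 13.23, 13.28 and 13.25 in wild-type, a difference of 0.19 (adjusted p = 0.103, limma). Its groups did not overlap either. The sulfate permease SUL1 read 13.39 and 13.39 in the deletion and 13.38, 13.44 and 13.44 in wild-type, which overlapped, with a difference of -0.03 (adjusted p = 0.692, limma). MUP3, a low-affinity methionine permease, read 11.63 and 11.21 in the deletion and 11.52, 11.54 and 11.49 in wild-type. The deletion arrays lay on either side of the wild-type arrays, so its difference of -0.10 had a wide 95% interval of -0.43 to 0.24.

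Of the 4 genes listed under cysteine synthesis 1 rose, STR2, whose enzyme uses cysteine, and 3 did not pass. STR2 (YJR130C), cystathionine gamma-synthase, read 11.37 and 11.27 in the PHO2 deletion and 10.75, 10.92 and 10.88 in wild-type. In deposited signal this was 2650 and 2468 in the deletion, against 1720, 1937 and 1888 in wild-type. The groups did not overlap. The difference was 0.47 (SE 0.08, adjusted p = 0.0394, limma), or 1.39-fold with an interval of 1.21 to 1.58. STR3, cystathionine beta-lyase, which takes cystathionine on to homocysteine, differed by 0.02 with a 95% interval of -0.34 to 0.38. It read 10.97 and 10.71 in the deletion and 10.82, 11.02 and 10.62 in wild-type, so the groups overlapped throughout. For the opposite route, from homocysteine to cysteine, CYS4 (cystathionine beta-synthase) differed by -0.04 and CYS3 (cystathionine gamma-lyase) by -0.13 (adjusted p = 0.194, limma). CYS3 read 13.67 and 13.75 in the deletion, below the 13.85, 13.83 and 13.82 of wild-type.

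None of the 10 sulfate assimilation genes passed, and every difference lay between -0.15 and 0.19. The 95% intervals of all 10 were within 0.5 of zero, with outermost bounds of -0.28 and 0.37. Over all 5449 genes, 4009 intervals lay within 0.5 of zero. MET3, ATP sulfurylase, which makes the first activated form of sulfate, read 13.75 and 13.75 in the PHO2 deletion and 13.75, 13.76 and 13.83 in wild-type. Its difference of -0.03 had an interval of -0.17 to 0.10. The kinase MET14 differed by 0.07 and the PAPS reductase MET16, which releases sulfite, by 0.11 (adjusted p = 0.211, limma).

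The subunits of sulfite reductase, which makes sulfide, and the enzymes of its siroheme cofactor did not differ in the same direction. MET10, one subunit, read 13.45 and 13.46 in the PHO2 deletion and 13.57, 13.57 and 13.65 in wild-type. Both deletion arrays were below all wild-type arrays, and the difference was -0.15 (SE 0.05, unadjusted p = 0.0416, adjusted p = 0.156, limma). The other subunit, MET5, differed by -0.09. MET1, the methyltransferase of siroheme synthesis, read 12.38 and 12.42 in the PHO2 deletion and 12.22, 12.30 and 12.12 in wild-type. Here both deletion arrays were above wild-type, with a difference of 0.19 (SE 0.07, unadjusted p = 0.0471, adjusted p = 0.164, limma). MET8, which finishes siroheme, differed by 0.01.

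Around sulfide itself, MET17, which joins sulfide to O-acetylhomoserine, differed by -0.05, and MET2, which makes O-acetylhomoserine, by 0.10. MET22, the phosphatase that clears the by-product of sulfate reduction, differed by 0.05. The unadjusted p of each of these 3 was above 0.05.

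None of the 6 methionine cycle genes passed, with a median difference of -0.07. In SAM1, SAM2, MET6 and SAH1 both deletion arrays were below all wild-type arrays, a pattern of 25.9% of all genes, and in the other two members both were above. SAM1, one of the S-adenosylmethionine synthetases, read 14.26 and 14.26 in the PHO2 deletion and 14.41, 14.39 and 14.45 in wild-type. Its difference was -0.16 (SE 0.05, unadjusted p = 0.0269, adjusted p = 0.131, limma). SAM2, the other synthetase, read 14.20 and 14.16 in the deletion and 14.25, 14.22 and 14.30 in wild-type, a difference of -0.07. Methionine synthase MET6 differed by -0.08 and the S-adenosylhomocysteine hydrolase SAH1 by -0.07. The other two are homocysteine methyltransferases. MHT1, which uses S-methylmethionine as the methyl donor, read 10.81 and 10.79 in the PHO2 deletion and 10.58, 10.65 and 10.42 in wild-type. The groups did not overlap, and the difference was 0.25 (SE 0.08, unadjusted p = 0.0291, adjusted p = 0.134, limma). SAM4, which uses S-adenosylmethionine, read 12.56 and 12.47 in the deletion and 12.24, 12.45 and 12.38 in wild-type, a difference of 0.15 (adjusted p = 0.263, limma).

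Across sulfate assimilation, the methionine cycle and cysteine synthesis, 1 of 20 genes rose, against 3.17% of all genes, and none fell. Of the 20, 18 differed by less than 0.2, against 66.0% of all genes. The median difference of the 20 was -0.01.

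**Figure D2:**
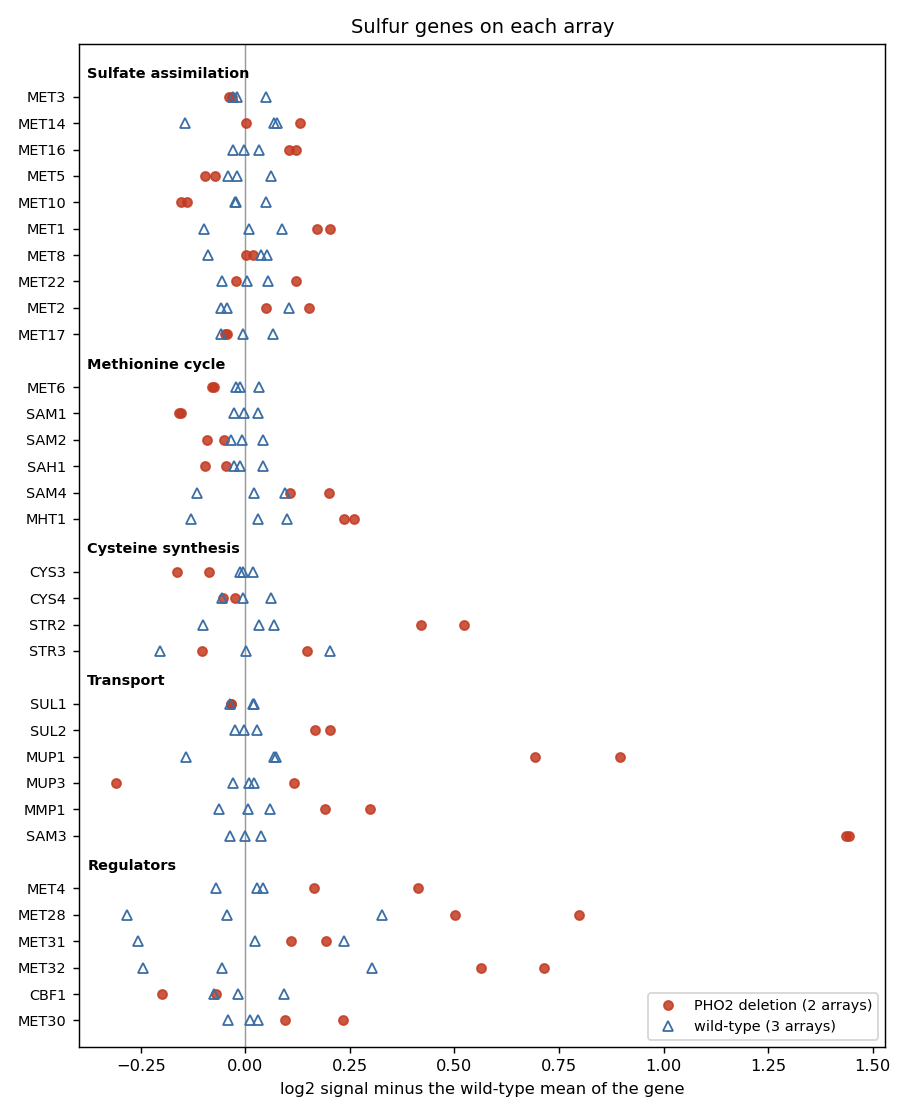
Log2 signal of the 32 genes on each array, relative to each gene's wild-type mean, with both groups on the same row of a gene. Filled circles are the 2 PHO2 deletion arrays and open triangles the 3 wild-type arrays, and points further right are higher. SAM3 and MUP1 are raised on both deletion arrays, while MET28, MET31, MET32 and STR3 also vary between the wild-type arrays.

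None of the 6 regulators passed the adjusted threshold. At an unadjusted p of 0.05, 3 passed, all higher in the PHO2 deletion, against 29.4% of all genes. Of the 1199 genes of at most 700 coding bases, which include MET28 and MET32, 431 passed at that p, 401 of them higher. MET28, a basic leucine zipper protein that stabilises the Met4 complex on DNA, read 12.54 and 12.24 in the PHO2 deletion and 11.70, 12.07 and 11.46 in wild-type. The groups did not overlap, but the wild-type arrays spanned more than the gap between groups. The difference was 0.65 (SE 0.20, 95% interval 0.15 to 1.15, unadjusted p = 0.0207, adjusted p = 0.117, limma). MET32, a zinc finger protein that recruits Met4, read 11.41 and 11.26 in the PHO2 deletion and 10.45, 11.00 and 10.64 in wild-type. Its groups did not overlap, and the difference was 0.64 (SE 0.17, unadjusted p = 0.0121, adjusted p = 0.0943, limma). Its close relative MET31 read 10.38 and 10.47 in the deletion and 10.30, 10.51 and 10.02 in wild-type, which overlapped, a difference of 0.15.

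MET4, the activator, read 12.13 and 11.88 in the PHO2 deletion and 11.74, 11.65 and 11.76 in wild-type. Both deletion arrays were higher, with a difference of 0.29 (SE 0.09, unadjusted p = 0.0244, adjusted p = 0.125, limma), which was 0.16 without deletion replicate 1 and 0.41 without deletion replicate 2. MET30, the substrate-binding subunit of the ubiquitin ligase that acts on Met4, differed by 0.16 (adjusted p = 0.177, limma). CBF1, the helix-loop-helix protein that binds upstream of many genes of the pathway, differed by -0.13 (adjusted p = 0.292, limma). The regulators had a median residual SD of 0.159 between arrays of a group, larger than the 0.066 of the 32 genes together and the 0.087 of all genes. It was 0.278, 0.205 and 0.235 in MET28, MET31 and MET32, which have at most 700 coding bases. The median over all genes this short was 0.178. In the longer MET4, MET30 and CBF1 it was 0.113, 0.064 and 0.087.

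Coding length moved with the difference over the whole array. The 1199 genes of at most 700 coding bases, a limit chosen after the values were seen, had a median difference of 0.25, and 83.6% of them were higher in the PHO2 deletion. The 4250 longer genes had a median of -0.03. Of the 32 sulfur genes, MET14, MET28, MET31 and MET32 are this short, and all 4 were higher in the deletion with none past the threshold. With the trend on coding length removed, the difference of MET28 was 0.41 (adjusted p = 0.110, limma) and that of MET32 was 0.41 (adjusted p = 0.119, limma). MET14 then stood at -0.14 and MET31 at -0.12. The same step left SAM3 at 1.46, MUP1 at 0.81 and STR2 at 0.49, all past the threshold. Over the 28 longer sulfur genes the median difference was 0.02 without that step.

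**Figure D3:**
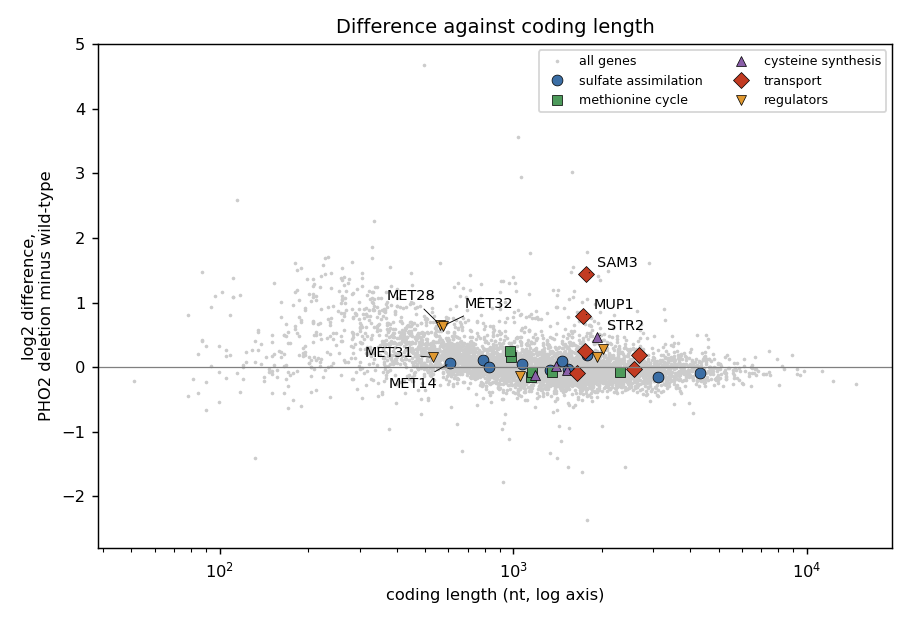
Difference in log2 signal (PHO2 deletion minus wild-type) against coding length for all 5449 genes, with the 32 sulfur genes drawn on top. The horizontal line marks no difference. Short genes lie higher as a whole, and SAM3 and MUP1 lie well above that line.

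Related genes were set against each other within each array, in 8 pairs that share a substrate or a family. With 2 arrays against 3, an exact permutation test has 10 arrangements and cannot go below p = 0.1. SAM3 rose by 1.20 more than MMP1, its paralog, and every deletion array exceeded every wild-type array in this contrast (exact permutation p = 0.1, adjusted p = 0.16). MUP1 exceeded MUP3 by a further 0.89 in the PHO2 deletion (exact permutation p = 0.1, adjusted p = 0.16). SAM3 set against SAM4, its neighbour on the chromosome that uses S-adenosylmethionine, gave 1.29 at the same p. The contrast of SUL2 with SUL1 was 0.22 and that of SAM1 with SAM2 was -0.08, also without overlap. MET32 against MET31 gave 0.49, with values of 1.03 and 0.79 in the PHO2 deletion and 0.15, 0.49 and 0.62 in wild-type, which did not overlap (exact permutation p = 0.2, adjusted p = 0.267). MHT1 against SAM4 gave 0.09, and MMP1 against MHT1 gave -0.00.

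Beyond the 32, a wider list of 41 genes covered supply of homoserine and methyl-folate, salvage of methionine, glutathione, other sulfur uptake, thioredoxins and the Met30 ligase. Of these, 39 were measured, and SOA1 and HSU1 (YLL058W) were not analysed here. In the wider list 4 genes rose, 1 fell and 34 did not pass, with a median difference of 0.02. Over all genes 5.05% passed. At an unadjusted p of 0.05, 16 of the 39 passed, 9 higher and 7 lower, against 29.4% of all genes. In uptake and use of other sulfur compounds 2 of 6 rose. YCT1, a cysteine transporter, read 11.82 and 11.59 in the PHO2 deletion and 9.98, 10.31 and 10.15 in wild-type. Its groups were well apart, with a difference of 1.55 (SE 0.12, adjusted p = 0.00875, limma), or 2.94-fold. BDS1, a sulfatase that releases sulfate from organic esters, read 10.30 and 10.25 in the PHO2 deletion and 9.59, 9.69 and 9.49 in wild-type. This was a difference of 0.68 (SE 0.08, adjusted p = 0.0183, limma) with no overlap.

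Among 8 glutathione genes 1 rose. OPT1, which imports glutathione, read 11.44 and 11.39 in the PHO2 deletion and 11.08, 11.09 and 10.98 in wild-type, a difference of 0.37 (SE 0.06, adjusted p = 0.0414, limma). GSH2, glutathione synthetase, had -0.34 (adjusted p = 0.0585, limma) and DUG2, which takes part in glutathione breakdown, had -0.31 (adjusted p = 0.0548, limma). Among 10 methionine salvage genes 1 rose and 1 fell. MEU1, methylthioadenosine phosphorylase, read 11.95 and 11.98 in the PHO2 deletion and 12.26, 12.27 and 12.27 in wild-type. It was lower on both deletion arrays, with a difference of -0.30 (SE 0.05, adjusted p = 0.0398, limma). ARO9, an aromatic aminotransferase that can act in the last step of salvage, read 7.59 and 7.33 in the PHO2 deletion and 6.51, 6.46 and 6.27 in wild-type. Its wild-type mean of 6.41 was below the background bound of 6.44, and 1 of the 3 wild-type arrays was below it. With that array set to the bound, the mean of ARO9 was 1.98-fold higher in the PHO2 deletion. As read, it was 2.07-fold higher, with an interval of 1.69 to 2.52 (adjusted p = 0.0156, limma). None of the 32 sulfur genes was below that bound on any array. Of the 16 alternatives, YCT1 passed under 13, BDS1 and ARO9 under 11 each, and OPT1 and MEU1 under 9 each. No gene passed among those of homoserine supply, methyl-folate, thioredoxins and the Met30 ligase.

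**Figure D4:**
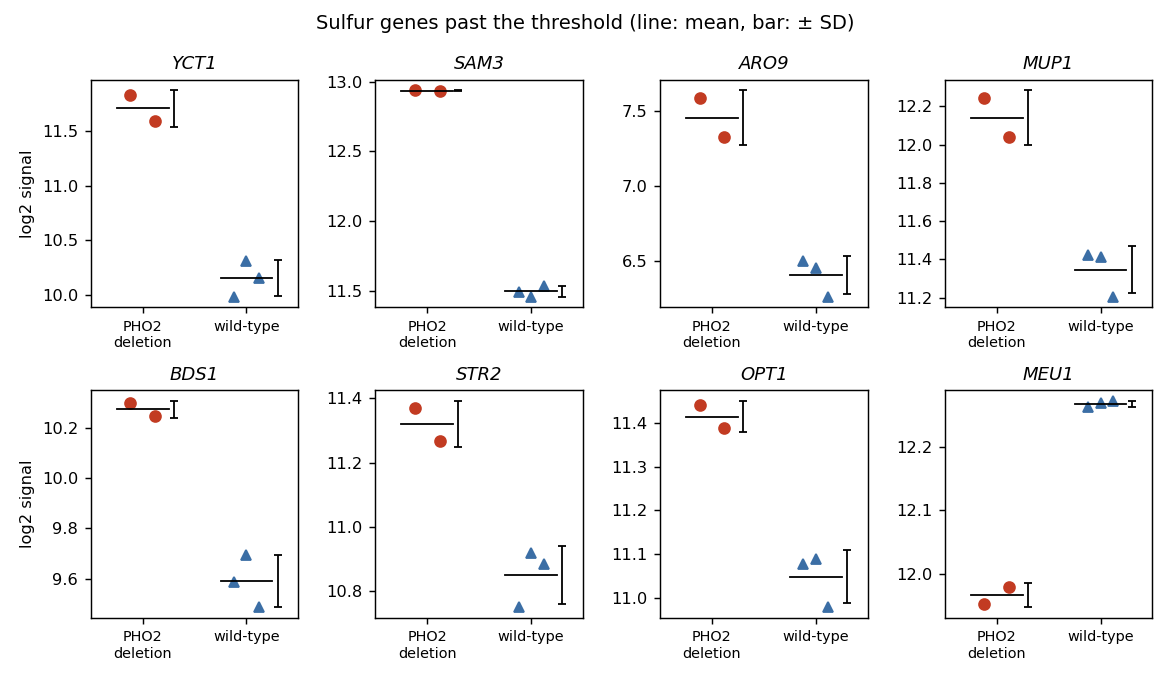
Log2 signal on every array of the 8 genes past the threshold among the 32 sulfur genes and the wider list, with the PHO2 deletion left of wild-type and a bar at each mean. The groups do not overlap in any of the 8, and MEU1 is the one that is lower in the PHO2 deletion.

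The calls differed in how far they depended on the settings. SAM3 passed under all 16 alternatives, with differences of 1.40 to 1.46. MUP1 passed under 11 of the 16, with differences of 0.69 to 0.90, and STR2 under 9, with differences of 0.42 to 0.52. MUP1 lost its call without wild-type replicate 1 (adjusted p = 0.0896, limma), without deletion replicate 1 (0.176) and without deletion replicate 2 (0.0915). STR2 lost its call without any of the 5 arrays in turn, with adjusted p-values of 0.0517 to 0.2405 (limma). Both also lost it with all probe sets in the fit and with a replicate block. MET32, which did not pass, did so under 2 alternatives, at 0.79 without wild-type replicate 2 (adjusted p = 0.0352, limma) and at 0.73 with array weights (adjusted p = 0.0494, limma). The remaining 28 genes passed under none.

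**Figure D5:**
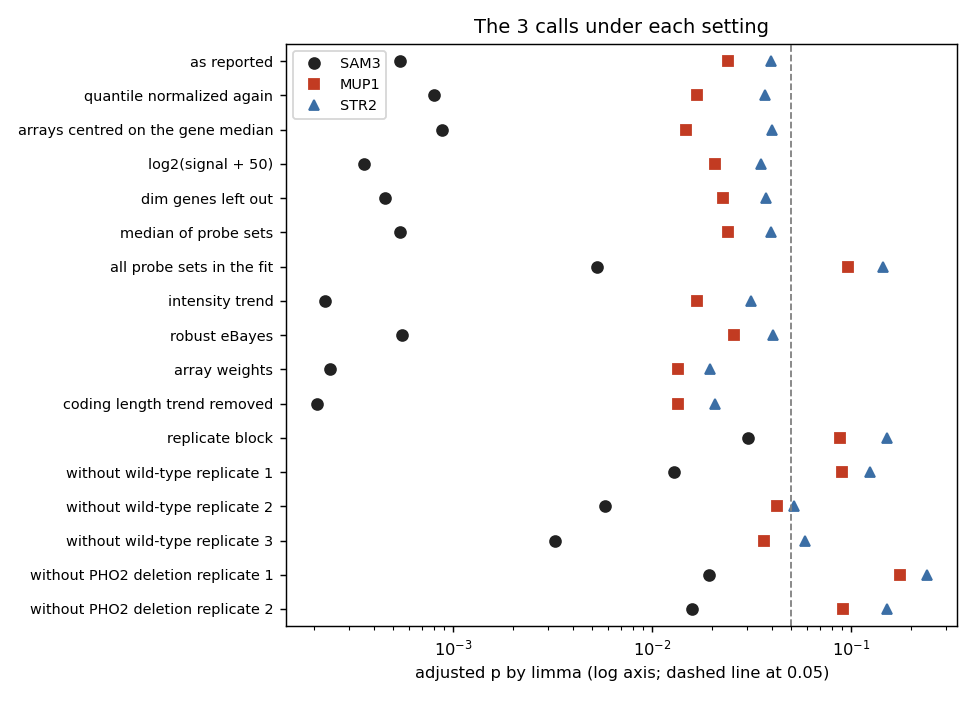
Adjusted p by limma, on a log axis, of SAM3, MUP1 and STR2 under the 16 alternatives and as reported. The dashed line is at 0.05. SAM3 lies below 0.05 throughout, while STR2 and MUP1 lie above it in several settings.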

How the data were processed

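The authors deposited intensity values on a linear scale, made with RMA in the affy package of R 2.8.0, per the submitters' processing notes. The sources used here do not give the library file, the build or which arrays were normalized together. The scale was read from the values, which run from 9.49 to 37719 over the table. Of 10928 probe sets 7245 were annotated and 5498 matched a gene of the RefSeq R64 table, which also gave coding lengths and neighbours. For 47 genes with several probe sets the brightest was kept, which left 5449 genes, with no filter on low values. Values were taken as log2 and compared with limma 3.58.1 (lmFit and eBayes, R 4.3.3) across all genes, with 3 residual degrees of freedom and Benjamini-Hochberg adjustment. The number of arrays limits the precision. The fit was tested on data with known changes. The background bound is the 95th percentile of 1747 annotated probe sets that match no gene.

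The members and lists were chosen with earlier results of these data known. All members were named. Values on every array were given for those with a p below 0.05, for related pairs, and for the member with the largest difference in a role without one. From the wider list, genes past the threshold and those with the smallest p were named. Alternatives covered quantile normalization, median centring, a trend on intensity, array weights, a pseudocount, removal of the coding length trend, the median of a gene's probe sets, all probe sets in the fit, robust variances, a dim filter, a replicate block and leaving out each array. A planned count of promoter motifs was not run, since no sequence was used here. No column belonged to another sample (0).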

Additional observations from a re-analysis of the deposited data

How the results depend on the processing

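Of 16 alternatives for each of 37 genes, 592 values in all, 535 kept their direction and their side of the threshold, 39 lost the call, 2 gained it and 16 turned in sign. Of the 32 genes, 1 passed with all probe sets in the fit, 1 with a replicate block, and 1 to 3 with single arrays left out, and none passed as lower under any alternative. In the wider list, with 5 called, 1 passed with all probe sets, 9 with array weights and 0 with the replicate block. Between 1 and 4 passed with single wild-type arrays left out. With the replicate block 16 of the 39 had an unadjusted p below 0.05 (limma), against 1027 of all 5449 genes. Among all genes, with 275 called, 29 passed with all probe sets, 638 with array weights, 417 after quantile normalization (172 higher and 245 lower), 35 with the replicate block and 19 to 257 with arrays left out. Without single arrays YCT1 lost its call for deletion replicates 1 (adjusted p = 0.0876, limma) and 2 (0.0535). BDS1 lost it for wild-type replicate 1 (0.0896, limma) and deletion replicates 1 (0.161) and 2 (0.108), and ARO9 for the same arrays (0.0734, 0.1395 and 0.0634). OPT1 (0.0561 to 0.246) and MEU1 (0.0597 to 0.2405) lost it for each of the 5 arrays (limma). The replicate block used replicates 1 and 2 alone. Deviations of the same-numbered arrays from their group means correlated at r = -0.25 over 5449 genes. With only replicates 1 and 2 in each group, this sets a single contrast against another. It cannot decide whether the numbers pair the samples. A lone deletion array was assumed to vary like wild-type. The genes that turned in sign had differences from -0.10 (MUP3, SE 0.13) to 0.15 (MET31, SE 0.15) as reported. MET14 was -0.14 with the coding length trend removed and -0.0073 to 0.13 with arrays left out. MET8 was -0.044 after quantile normalization, -0.035 with centring, -0.013 with array weights, -0.073 with the length trend removed, -0.034 with the replicate block and -0.034 to 0.036 with arrays left out. STR3 was -0.021 after quantile normalization, -0.024 with centring, -0.081 with the block and -0.10 to 0.15 with arrays left out. MET22 ran from -0.022 to 0.12 and MUP3 from -0.31 to 0.12 with arrays left out, and MET31 was -0.12 with the length trend removed. Quantile normalization moved the median of all genes to -0.05. The cause of these changes was not tested.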

Other observations

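The genes beside those that passed were read as well, in the order of the R64 gene table. Of the BDS1 neighbours, 1 passed. YOL162W, next but one to BDS1, rose by 1.30 in the PHO2 deletion (SE 0.14, adjusted p = 0.0155, limma), and YOL163W between them had 1.12 (adjusted p = 0.058, limma). Neither has a gene symbol in that table. On the other side YOL164W-A had 0.53 (adjusted p = 0.202, limma). Beside SAM3, the methyltransferase SAM4 had 0.15, and PBI1 beyond SAM4 had 0.38 (adjusted p = 0.059, limma). Beside MUP1, YGR054W fell, with a difference of -0.38 (adjusted p = 0.0471, limma), while RSC1, a subunit of the RSC chromatin remodelling complex, had 0.01. Beside STR2, EFM3 had -0.02 and MNS1 had -0.20. YCT1 stood between YLL056C at 0.03 and YLL054C at -0.24.

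The markers of mating type alpha had a summed signal of 1842 to 2056 in the PHO2 deletion and 1611 to 1839 in wild-type. Most of it came from SAG1, whose signal was 1257 and 1149 in the deletion and 1082, 1102 and 1251 in wild-type. Of the 4, STE3, the receptor for a-factor, rose by 0.93 (adjusted p = 0.0312, limma), and 3 did not pass. SAG1 had 0.07 and MF(ALPHA)2 had -0.21. MF(ALPHA)1 had 0.79, with wild-type arrays at 6.07, 5.64 and 6.18, all below the background bound of 6.44.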
